A study of Mus musculus with 9 samples.

Results

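The comparison set mouse embryonic stem (ES) cells of a Wdr5 knockdown clone against cells with a luciferase control. It used 5 of the 9 arrays of the series: the 3 arrays labelled Wdr5R4 without doxycycline and the 2 arrays labelled LucR with doxycycline, chosen by these transfection labels. All probes above background on at least 2 of the 5 arrays entered, which gave 10119 genes to test. The 3 knockdown arrays carried RNA of 1 clone, Wdr5R4, which the labels describe as a rescue line in which Wdr5 is knocked down through a short hairpin RNA (shRNA) and which was grown without doxycycline. The 2 control arrays carried RNA of cells with a luciferase hairpin (LucR), grown with doxycycline. Both groups are Aniv15 cells, an ES line that carries a reverse tetracycline transactivator, and both were cultured on mouse embryonic fibroblast feeders with the cytokine LIF. A growth description shared by all samples lists doxycycline, which conflicts with the label of the knockdown samples. Because the groups differ in clone, hairpin and doxycycline at once, the effects of these 3 cannot be told apart. The labels do not say that replicates are separate cultures, so the p-values measure only the spread between these arrays, which may be technical.

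Wdr5 is a WD-repeat protein shared by the COMPASS family of complexes, which methylate histone H3 at lysine 4, a mark found at the start of active genes. It helps the complexes assemble and engage the histone tail. ES cells keep a compact epithelial colony form, divide rapidly and hold their state through a network of transcription factors.

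Signal is given as log2 of the background-corrected and quantile-normalized intensity, and a fold change sets the mean of the knockdown arrays over the mean of the control arrays. Mean deposited intensities were 375 to 429 on the knockdown arrays and 448 to 519 on the control arrays, so the knockdown arrays were dimmer before normalization, and the part of this in any result was not tested. Between 12156 and 12641 probes were above background on the knockdown arrays, and 12690 and 13104 on the control arrays. Normalized signals correlated across probes at 0.995 within the knockdown group and at 0.996 between the control arrays, against 0.926 to 0.929 between groups. The median SD of a gene was 0.095 in the knockdown group and 0.077 in the control group, on the log2 scale. With 3 and 2 arrays, the number of arrays limits the precision of each value.

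The targeted gene was lower in the knockdown, as its label says. Wdr5 had signals of 8.90, 9.02 and 8.99 on the knockdown arrays, against 9.97 and 9.89 on the control arrays. Its log2 fold change was -0.96 ± 0.07 (SE, limma adjusted p = 0.000121). Zfp42 (Rex1), a zinc finger gene of naive ES cells, had 8.48, 8.40 and 8.59 in the knockdown and 11.21 and 11.38 in the control. Klf4, a reprogramming factor gene, had 7.53, 7.59 and 7.66 in the knockdown and 9.63 and 9.55 in the control. Cav1, the main coat protein of caveolae, lay the other way, at 10.54, 10.71 and 10.64 in the knockdown and 5.79 and 6.42 in the control. For Lox, the enzyme that crosslinks collagen and elastin, the mean signal was 9.91 ± 0.10 in the knockdown (SD, n = 3). Its control signals of 4.66 and 4.91 were not above background on either array. The groups did not overlap for any of these 5 genes. That alone sets them little apart, since the same held upward for 43.9% and downward for 35.2% of all genes tested.

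Of the 10119 genes tested, 3861 (38.2%) were higher and 3086 (30.5%) were lower in the knockdown at a limma adjusted p under 0.05, so 68.7% of all genes were called in one direction or the other. A change of at least 2-fold was called upward in 1141 genes (11.3%) and downward in 974 (9.63%), and at least 8-fold in 21 and 8 genes. With the arrays scaled to a common median the balance at 2-fold turned, with 972 genes higher and 1144 lower. All knockdown arrays lay above all control arrays for 43.9% of genes and below them for 35.2%. The median log2 fold change over all genes was 0.10. A count of members of a gene list is therefore read against these shares. A gene that passed the filter through the arrays of 1 group alone had to lie higher in that group. Such genes can add to the higher counts of the lists below. Above background on all 5 arrays were 13 of 18 YAP and TEAD targets and 20 of 26 interstitial matrix genes. So were 26 of 33 integrin and focal adhesion genes, 26 of 34 secreted factor genes and 8269 of all 10119 genes. The lists were written with results of these data known, so their counts are descriptions. In bulk RNA, fewer cells of a type and less RNA per cell cannot be told apart.

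Genes of the contractile cytoskeleton were higher in the knockdown clone. Of 28 measured genes of actins and contractile proteins, 23 were higher and 3 lower, against 38.2% and 30.5% of all genes, and 16 were at least 2-fold higher. The list's median log2 fold change was 1.23. All 5 measured actin genes rose. Actc1, the cardiac actin gene, had signals of 9.25, 9.12 and 9.34 in the knockdown and 5.54 and 5.53 in the control. That is a 13.0-fold difference (log2 3.70 ± 0.09 SE, limma adjusted p = 1.27e-05), and its dimmer probe was at 1.79. Acta1, the skeletal muscle actin gene, had 12.32, 12.21 and 12.31 in the knockdown and 9.83 and 9.95 in the control (5.23-fold). Acta2, the smooth muscle actin gene, was among the brightest probes of the array: its deposited intensities were 33495, 32149 and 30260 in the knockdown and 5061 and 5499 in the control. Actb, the cytoplasmic actin gene, rose 2.35-fold by its brightest probe, while 1 of its other 4 probes was at -0.90 and 3 were between 1.89 and 3.61. Actg2 was not above background on either control array and was at least 10.6-fold higher. Actin coding sequences are near-identical, so hybridisation between family members was possible and was not tested.

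Other contractile genes followed the same direction. Tagln, the actin-bundling smooth muscle protein transgelin, had signals of 9.07, 8.99 and 8.96 in the knockdown and 5.97 and 5.79 in the control. The tropomyosin genes Tpm1 (log2 2.21 ± 0.07), Tpm2 (1.72 ± 0.08) and Tpm4 (0.94 ± 0.07) rose, as did Myh9, encoding nonmuscle myosin IIA (0.80 ± 0.07). Pdlim7, an actin-associated PDZ and LIM protein gene, rose 4.53-fold. The members that fell were the tropomyosin gene Tpm3 (-1.12 ± 0.11), the muscle intermediate filament gene Des (-1.08 ± 0.09) and the myosin light chain gene Myl12b (-0.35 ± 0.07, other probes at -1.38 and -1.33). Of 11 heart and skeletal muscle markers on the array, Myl7, Myod1 and Nppa were below background on every array, and of the 7 tested 2 were higher and 3 lower.

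Serum response factor, which binds the CArG box, is a textbook regulator of actin, vinculin and its own gene. Srf itself had signals of 10.61, 10.78 and 10.63 in the knockdown and 9.50 and 9.46 in the control, a 2.29-fold difference (limma adjusted p = 7.65e-05), but its dimmer probe was at -0.36. An exact CArG box was searched for on both strands in the 250 bases upstream of each start site in the RefSeq promoter table of GRCm38.p6. It occurred in 5 of the 24 actin and contractile genes with a promoter entry (Acta1, Actc1, Cnn2, Myl6 and Srf) and in 3 of 23 integrin and focal adhesion genes (Itgb6, Vcl and Fermt2). By comparison, 1.62% of all 27025 genes with a promoter entry and 1.54% of the 7878 tested ones held it. Of the tested ones, 2.55% of those at least 2-fold higher and 1.43% of those at least 2-fold lower held it. None of 19 interstitial matrix genes and none of 13 YAP and TEAD targets did. All 8 of these CArG genes were called higher, although the call of Itgb6 (log2 1.01 ± 0.25) ended without luciferase replicate 2 (0.79). In their lists 82.1% of the contractile and 75.8% of the adhesion genes were higher, with or without the box. The count of 8 therefore does not tie the box to the rise. A match of letters is a description of this window and not a binding site. The windows below are from RefSeq, GRCm38.p6, written 5′ to 3′ on the gene's strand with the box in capitals. They show where the match lies in a pair of the actin genes that rose, in Srf, which holds a pair of boxes, and in the focal adhesion gene Vcl. They lie at chr2:114052876-114053025 on the minus strand (Actc1), chr8:123894776-123894925 on the minus strand (Acta1), chr17:46556163-46556312 on the minus strand (Srf) and chr14:20929151-20929300 on the plus strand (Vcl).
Actc1: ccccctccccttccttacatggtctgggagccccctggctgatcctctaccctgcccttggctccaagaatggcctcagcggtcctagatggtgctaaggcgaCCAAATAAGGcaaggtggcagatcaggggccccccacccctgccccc
Acta1: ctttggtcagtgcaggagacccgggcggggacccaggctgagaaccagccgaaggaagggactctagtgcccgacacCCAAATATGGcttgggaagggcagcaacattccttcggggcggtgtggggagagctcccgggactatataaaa
Srf: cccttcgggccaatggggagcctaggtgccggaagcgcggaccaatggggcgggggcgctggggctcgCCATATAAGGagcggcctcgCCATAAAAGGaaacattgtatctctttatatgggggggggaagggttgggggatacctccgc
Vcl: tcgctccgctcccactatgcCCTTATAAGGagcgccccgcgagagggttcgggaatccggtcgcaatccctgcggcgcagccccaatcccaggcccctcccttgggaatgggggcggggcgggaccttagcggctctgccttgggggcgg

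Cell adhesion to matrix moved the same way. Of 33 measured integrin and focal adhesion genes 25 were higher, none lower and 18 at least 2-fold higher, with a median log2 fold change of 1.04. Under scaling to a common median, and with the mean over a gene's probes, 1 member was lower. Vcl, encoding vinculin, which links integrins to actin, had signals of 12.84, 12.96 and 13.13 in the knockdown and 11.69 and 11.52 in the control. Zyx, encoding the focal adhesion protein zyxin, had 13.72, 13.70 and 13.74 in the knockdown and 11.99 and 11.95 in the control. Both were bright in both groups, and all knockdown arrays lay above all control arrays, as for 43.9% of all genes. Of 15 measured integrin subunit genes 10 were higher and none lower. Itga11, a collagen receptor subunit, rose 6.34-fold, with its dimmer probe at 0.65. The fibronectin receptor subunit Itga5 rose 3.99-fold and Itga3, which pairs with Itgb1 to bind laminin, 2.53-fold. The caveolar genes Cavin3 (4.69-fold, other probe at 0.60) and Cavin2 (at least 4.94-fold) rose with Cav1. Tgfb1i1, encoding the focal adhesion adaptor Hic-5, rose 6.86-fold and Fermt1, encoding kindlin 1, 5.26-fold. The adaptor gene Pxn (log2 -0.15 ± 0.11) and the actin crosslinker gene Actn4 (-0.07 ± 0.08) were not called. Pxn was the member called lower under median scaling (-0.37) and Actn4 the one with the mean over probes (-0.73).

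**Figure D1:**
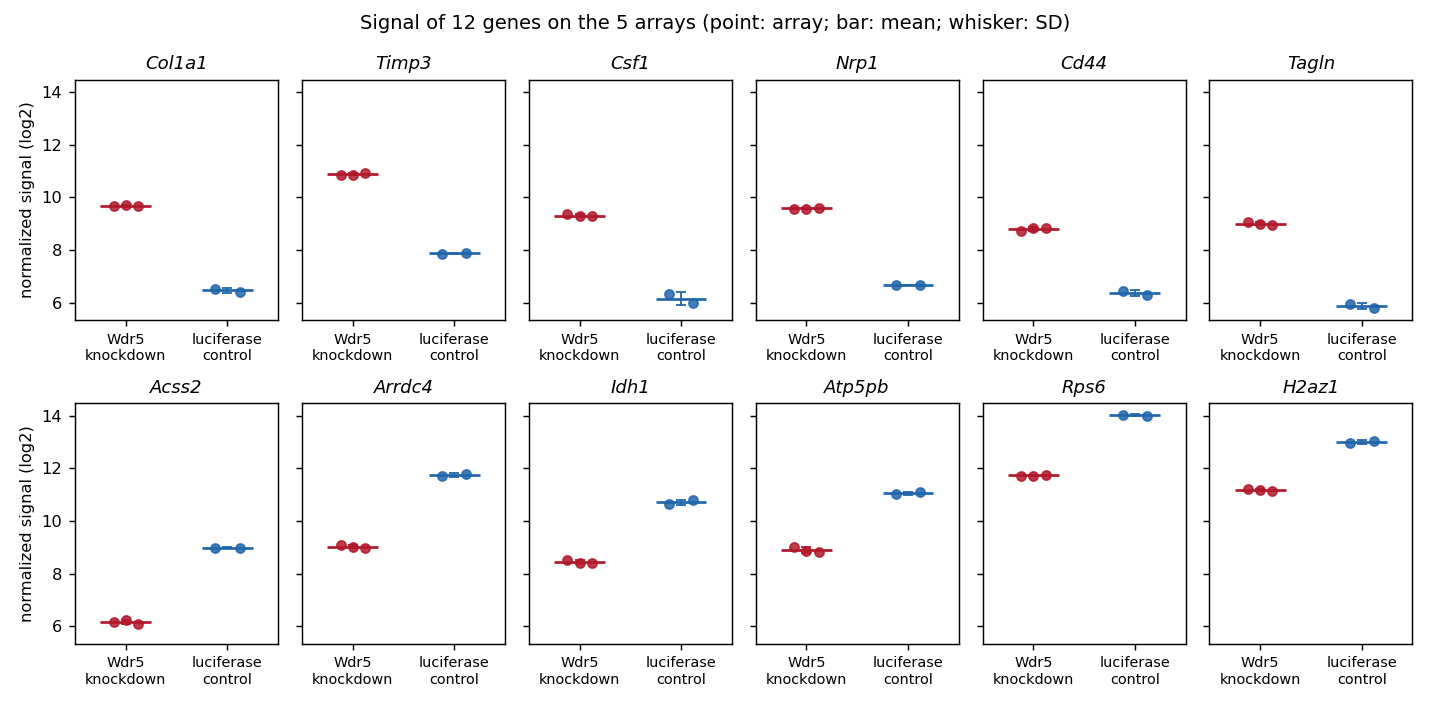
Normalized log2 signal (vertical axis) of 12 genes on each array, with the 3 Wdr5 knockdown arrays in red on the left of each panel and the 2 luciferase control arrays in blue on the right. Points are arrays, bars are group means and whiskers SD; the upper 6 genes lie higher in the knockdown on every array and the lower 6 lie lower on every array.

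Target genes of YAP and TEAD, transcriptional regulators that respond to cell tension and crowding, were higher with the cytoskeletal genes. Of 18 measured, 15 were higher, none lower and 8 at least 2-fold higher (median 0.91). Of these 18, 13 were above background on all 5 arrays, and a gene passing through the knockdown arrays alone had to lie higher. Ccn2, a secreted matricellular factor and a standard YAP readout, had signals of 14.10, 14.01 and 13.90 in the knockdown and 11.51 and 11.66 in the control. The fold was 5.33 (limma adjusted p = 1.71e-05). Ccn1 rose 3.95-fold, Ankrd1 4.41-fold (its dimmer probe at 0.91) and the receptor tyrosine kinase gene Axl 4.35-fold, and Crim1 was at least 5.24-fold higher. Lists of matrix and secreted genes share members with this one.

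Immediate early genes, which respond to growth factors and stress within the first hour, were mixed: of 17 measured, 10 were higher and 3 lower (median 0.65). Jun had 8.06, 7.89 and 7.89 in the knockdown and 6.14 and 6.29 in the control. Junb rose 2.48-fold, Ier3 2.45-fold, Klf6 3.76-fold (its dimmer probe at 0.17) and Phlda1 5.26-fold. The members that fell were Klf2, also a naive ES cell factor (log2 -1.37 ± 0.07), Fos (-0.54 ± 0.08) and Egr1 (-0.36 ± 0.10). The call of Egr1 ended without luciferase replicate 1 (-0.29, limma adjusted p = 0.113). Jun family members and Fos thus lay on opposite sides.

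Extracellular matrix genes formed the next block of higher genes. In the interstitial matrix list 19 of 26 measured genes were higher, 3 lower and 16 at least 2-fold higher, with a median of 1.16. All 6 measured collagens of the list were higher. Col1a1, a chain of the main fibrillar collagen, had 9.68, 9.69 and 9.66 in the knockdown and 6.54 and 6.40 in the control (9.23-fold, log2 3.21 ± 0.07 SE, limma adjusted p = 1.27e-05). Col3a1 had 7.55, 7.76 and 7.81 in the knockdown and 5.11 and 4.81 in the control, where it was above background on 1 array. Col6a1 rose 3.42-fold, and Fbn1, encoding the microfibril protein fibrillin 1, rose 5.06-fold. The fibulin 2 gene Fbln2 had 9.07, 9.15 and 9.12 in the knockdown and 7.56 and 7.63 in the control, and Tgfbi (log2 -0.05 ± 0.07), a collagen-binding adhesion protein gene, was not called. The 3 members that fell were Fbln1, encoding fibulin 1 (-0.84 ± 0.07, other probes at -1.83 and -0.43), the secreted phosphoprotein osteopontin gene Spp1 (-0.71 ± 0.08) and the proteoglycan gene Vcan, which was not above background in the knockdown (at least 1.02-fold lower).

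Enzymes that crosslink and remodel matrix were higher in 21 of 26 measured genes and lower in none, and 15 were at least 2-fold higher (median 1.03). Timp3, a matrix-bound inhibitor of metalloproteinases, had signals of 10.85, 10.86 and 10.93 in the knockdown and 7.87 and 7.89 in the control (limma adjusted p = 1.27e-05), with its dimmer probe at 1.03. Besides Lox, the related oxidase gene Loxl1 rose 3.15-fold, and the collagen lysyl hydroxylase gene Plod2 rose 2.58-fold. The membrane metalloproteinase gene Mmp14 rose 3.60-fold and the urokinase gene Plau 5.77-fold. Mmp2 (log2 -0.16 ± 0.08) was not called. Both the enzymes and the inhibitors of matrix breakdown were thus among the higher genes.

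Basement membrane genes were split by kind. Of 17 measured 12 were higher and 4 lower (median 0.59). The type IV collagens Col4a1, Col4a2, Col4a5 and Col4a6 were all higher, among them Col4a1 with 12.48, 12.43 and 12.57 in the knockdown and 9.11 and 8.97 in the control. Hspg2 (0.86 ± 0.07) and Agrn (0.72 ± 0.08), encoding the heparan sulphate proteoglycans perlecan and agrin, also rose. Of 6 laminin chains 3 were higher and 3 lower: Lamc1 had 10.46, 10.46 and 10.37 in the knockdown and 11.59 and 11.65 in the control. The nidogen gene Nid2, whose product links laminin to type IV collagen, fell 1.78-fold. Col7a1, encoding the collagen of anchoring fibrils, had 9.99, 9.92 and 9.81 in the knockdown and 7.16 and 6.88 in the control, with its dimmer probe at 0.78.

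Fibroblast markers overlap with these lists: 19 of the 22 are also members of the matrix, crosslinking, adhesion or mesenchymal lists, so their values largely repeat those results. Of the 22, 17 were above background in the knockdown and 13 in the control. Their summed deposited intensity was 7783 to 9119 on the knockdown arrays and 5121 and 6119 on the control arrays. Fbln1, the brightest member, was lower in the knockdown. Without it the sum was at least 6424 on every knockdown array, against 2459 and 2844 on the control arrays. Among the 16 tested, 12 were higher and 3 lower. The markers Fap, Lum, Postn, Prrx1 and Tcf21 were below background on every array, while Thy1 (log2 -0.44 ± 0.09) and Pdgfra (-0.43 ± 0.10) fell. The call of Pdgfra ended without luciferase replicate 2 (-0.36, limma adjusted p = 0.0611). The share of feeder RNA in each group, and its part in the matrix results, was not tested. Markers of ES cells lay the other way: their summed intensity was 36389 to 41323 in the knockdown and 76855 and 86280 in the control. Of 21 tested ES cell markers 18 were lower and none higher, and 1 was higher without knockdown replicate 1 and without knockdown replicate 3. Only Nr0b1 of 22 on the array was below background throughout.

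**Figure D2:**
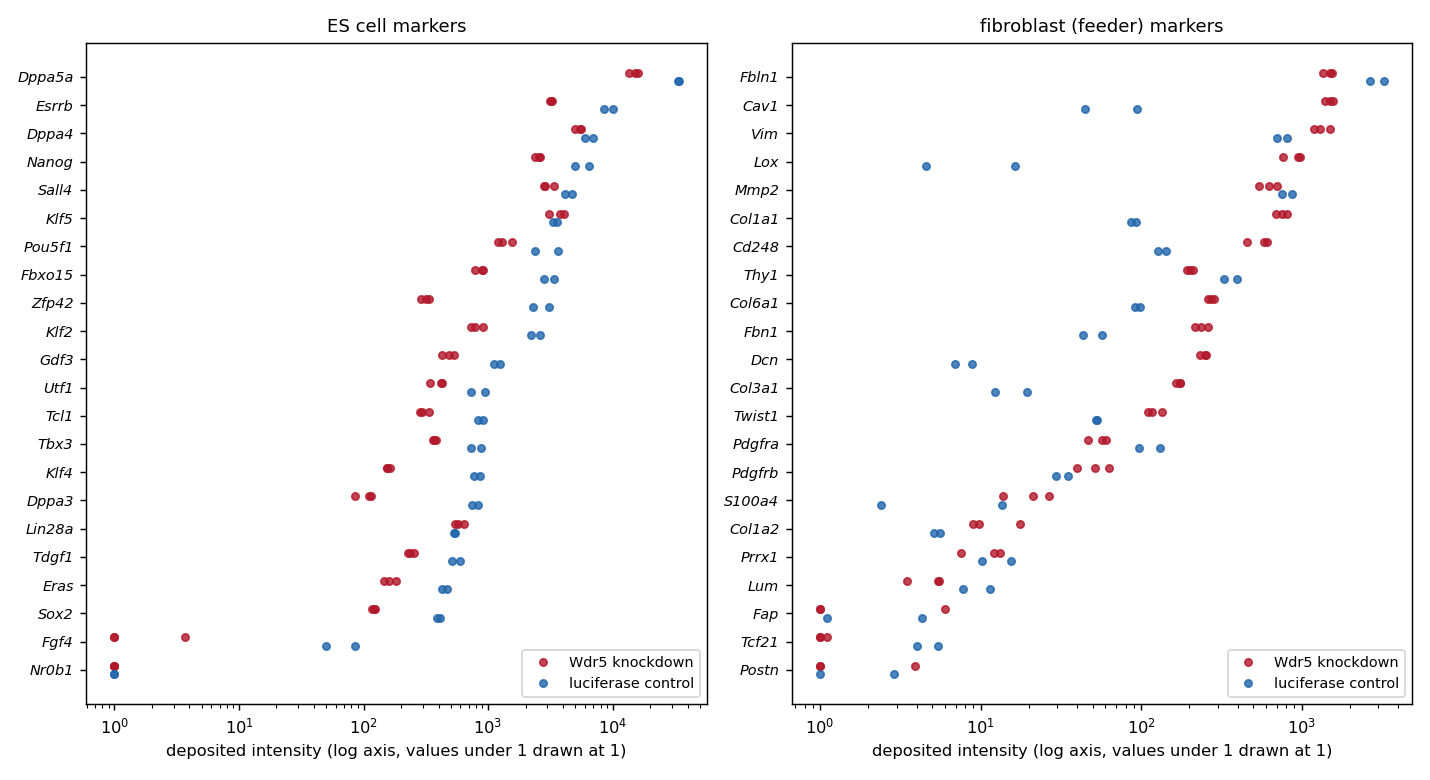
Deposited intensity (log axis, values under 1 drawn at 1) of the ES cell markers (left panel) and fibroblast markers (right panel) on the arrays, with the 3 Wdr5 knockdown arrays in red above the 2 luciferase control arrays in blue for each gene. ES cell markers lie lower in the knockdown for most genes; the fibroblast panel holds genes far higher in the knockdown (Cav1, Lox, Dcn) beside genes lower in it (Fbln1, Thy1) and genes near 1 in both groups.

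Secreted growth factors and chemokines were higher in 23 of 34 measured genes and lower in 5, with 19 at least 2-fold higher and a median of 1.16. Csf1, the growth factor of macrophages, had signals of 9.37, 9.29 and 9.28 in the knockdown and 6.32 and 5.97 in the control (8.95-fold, limma adjusted p = 1.68e-05). The neurotrophin gene Bdnf rose 4.71-fold, Igfbp5 and Igfbp7, encoding binding proteins of insulin-like growth factors, rose 4.43-fold and 4.09-fold, and the neuregulin gene Nrg1 was at least 3.64-fold higher. Vegfb fell 2.70-fold and Vegfa 2.23-fold, although the dimmer probe of Vegfa was at 0.11. Of their receptor genes, Flt1 and Nrp1 lay on the other side, while Kdr was below background on every array. Flt1, encoding VEGF receptor 1, had 10.76, 10.74 and 10.94 in the knockdown and 8.07 and 8.02 in the control. The co-receptor gene Nrp1 had 9.56, 9.57 and 9.61 in the knockdown and 6.66 and 6.67 in the control, and both of its probes rose by more than 2.9 on the log2 scale. The endothelial adhesion gene Pecam1, which mouse ES cells also express, fell 6.74-fold with both probes lower. The summed intensity of 10 endothelial markers was 484 to 570 on the knockdown arrays and 2558 and 2957 on the control arrays, with Cdh5, Emcn and Kdr below background on every array. Egfl7 carried most of this sum, which without it was 150 to 202 in the knockdown and 570 and 660 in the control, and Esam rose (log2 1.14 ± 0.10). The part of these markers in the results was not tested.

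Signalling lists were closer to the background. Of 31 genes of TGF-beta, activin and BMP signalling 17 were higher and 5 lower (median 0.35), and the lower count was 2 or 3 without either luciferase array or without knockdown replicate 2 or 3. The latent TGF-beta binding protein gene Ltbp1 rose 6.14-fold by its brightest probe, with other probes at -0.14 and 0.60. The antagonist genes Nog (3.97-fold) and Fst (2.87-fold) rose, and Bmp7 fell 2.13-fold. Of 32 genes of the LIF, FGF and ERK feedback list 14 were higher and 9 lower (median 0.16). The ERK phosphatase gene Dusp6 had 12.56, 12.56 and 12.64 in the knockdown and 11.21 and 11.19 in the control, but its other probes were at -0.55 and 1.32. Etv5 (log2 -1.30 ± 0.10), an ERK-responsive factor gene, and Socs3 (-0.53 ± 0.08), a feedback inhibitor of LIF signalling, fell. In the Notch list 6 of 20 genes were higher and 6 lower, and 3 were lower without luciferase replicate 1. The Wnt receptor gene Fzd2 rose 6.38-fold and the ligand gene Wnt10a 6.20-fold.

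Epithelial and mesenchymal genes were set side by side because ES cells are epithelial. Of 26 mesenchymal transition genes 19 were higher and 2 lower (median 0.85), and 1 was lower without luciferase replicate 2. Zeb2, a repressor of epithelial genes, had 7.57, 7.67 and 7.76 in the knockdown and 5.28 and 5.17 in the control. The hyaluronan receptor gene Cd44 had 8.71, 8.85 and 8.85 in the knockdown and 6.46 and 6.30 in the control, and Twist1 rose 2.66-fold. Epithelial junction genes did not fall as a group: 14 of 32 were higher and 11 lower (median 0.15), with 7 lower without luciferase replicate 1. Cdh1, the E-cadherin gene, was at 0.46 ± 0.11 on the log2 scale and was called higher, a call that ended without luciferase replicate 2 (0.45, limma adjusted p = 0.0504). The tight junction gene Tjp3 fell 5.75-fold by its brightest probe, and the other was at -2.50 on the log2 scale. Of its 3 knockdown signals, 2 exceeded background. Cldn3 fell 2.65-fold, while the desmosomal genes Jup (2.90-fold) and Pkp2 (2.26-fold, other probes at -0.35 and 0.58) rose.

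**Figure D3:**
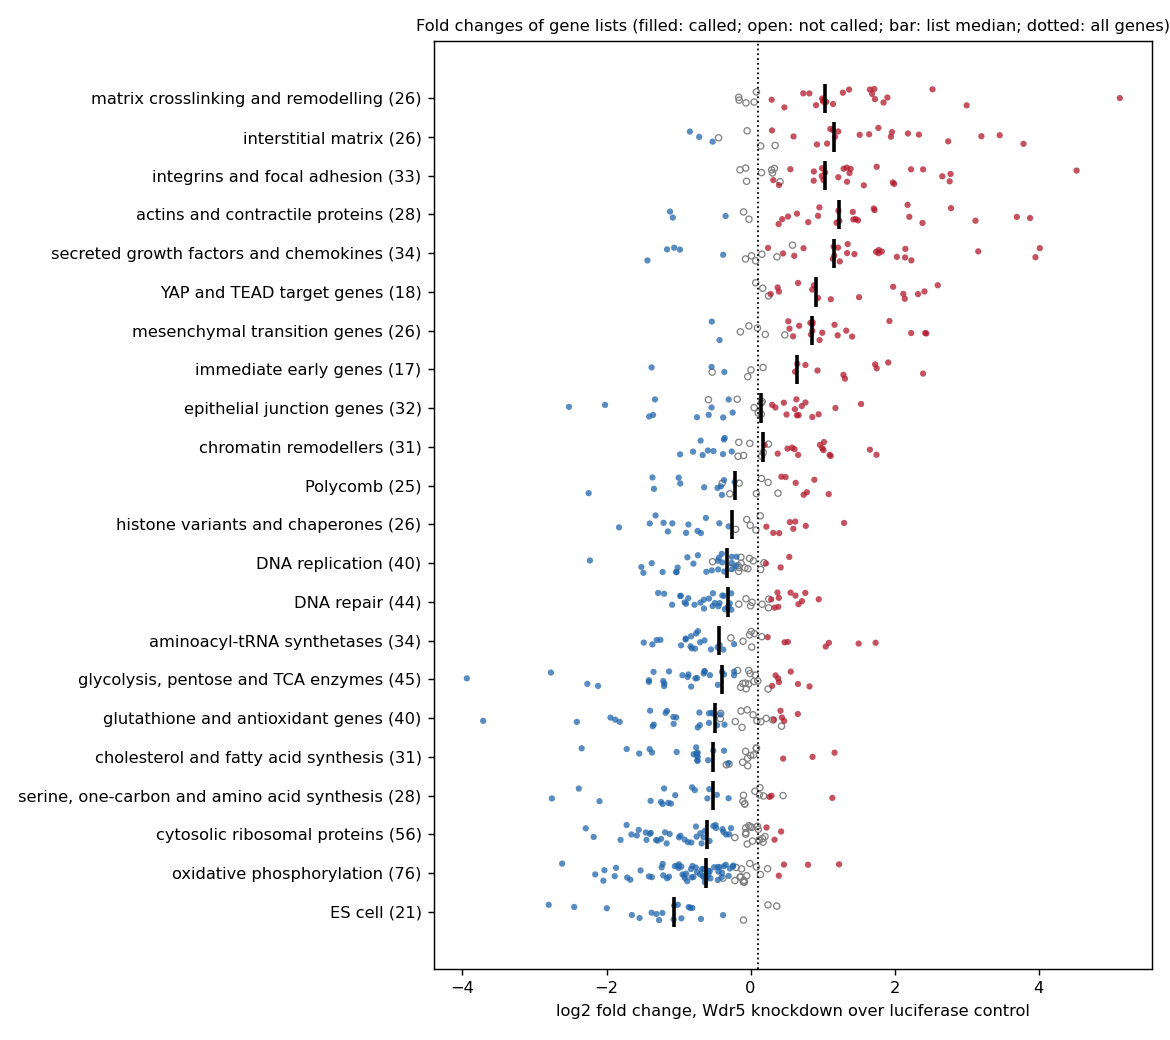
Log2 fold change of every tested member (points) of 22 gene lists, Wdr5 knockdown over luciferase control, with the number of members in brackets. Filled points passed the limma test (red higher, blue lower), open points did not, black bars are list medians and the dotted line is the median of all genes, 0.10; matrix, adhesion and contractile lists lie at the upper end and oxidative phosphorylation, ribosomal protein and ES cell lists at the lower end.

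Energy metabolism lay on the lower side. Oxidative phosphorylation genes encode the respiratory chain and ATP synthase of mitochondria. Of 76 measured genes of this list 58 were lower and 4 higher, against 30.5% and 38.2% of all genes, and 18 were at least 2-fold lower (median -0.63). The lower genes were spread over the complexes. In complex I 27 of 34 subunit genes were lower and 2 higher, in complex III 5 of 6 were lower, in complex IV 10 of 12 and in ATP synthase 11 of 15. Ndufa6, an accessory complex I subunit, had signals of 10.66, 10.61 and 10.60 in the knockdown and 12.14 and 12.16 in the control (2.88-fold, log2 -1.53 ± 0.07 SE, limma adjusted p = 2.09e-05). Atp5pb, encoding the peripheral stalk subunit b of ATP synthase, had 9.01, 8.88 and 8.81 in the knockdown and 11.01 and 11.10 in the control. Cox5a, a complex IV subunit, had 12.30, 12.30 and 12.32 in the knockdown and 13.46 and 13.47 in the control. Sdhb and Sdhc, iron-sulphur and membrane subunits of complex II, fell 2.66-fold and 2.19-fold. Cycs, encoding the soluble electron carrier cytochrome c, was the exception of largest size and rose 2.35-fold, with its dimmer probe at 0.66. None of the 15 genes of the list with several probes had probes called in opposite directions.

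**Figure D4:**
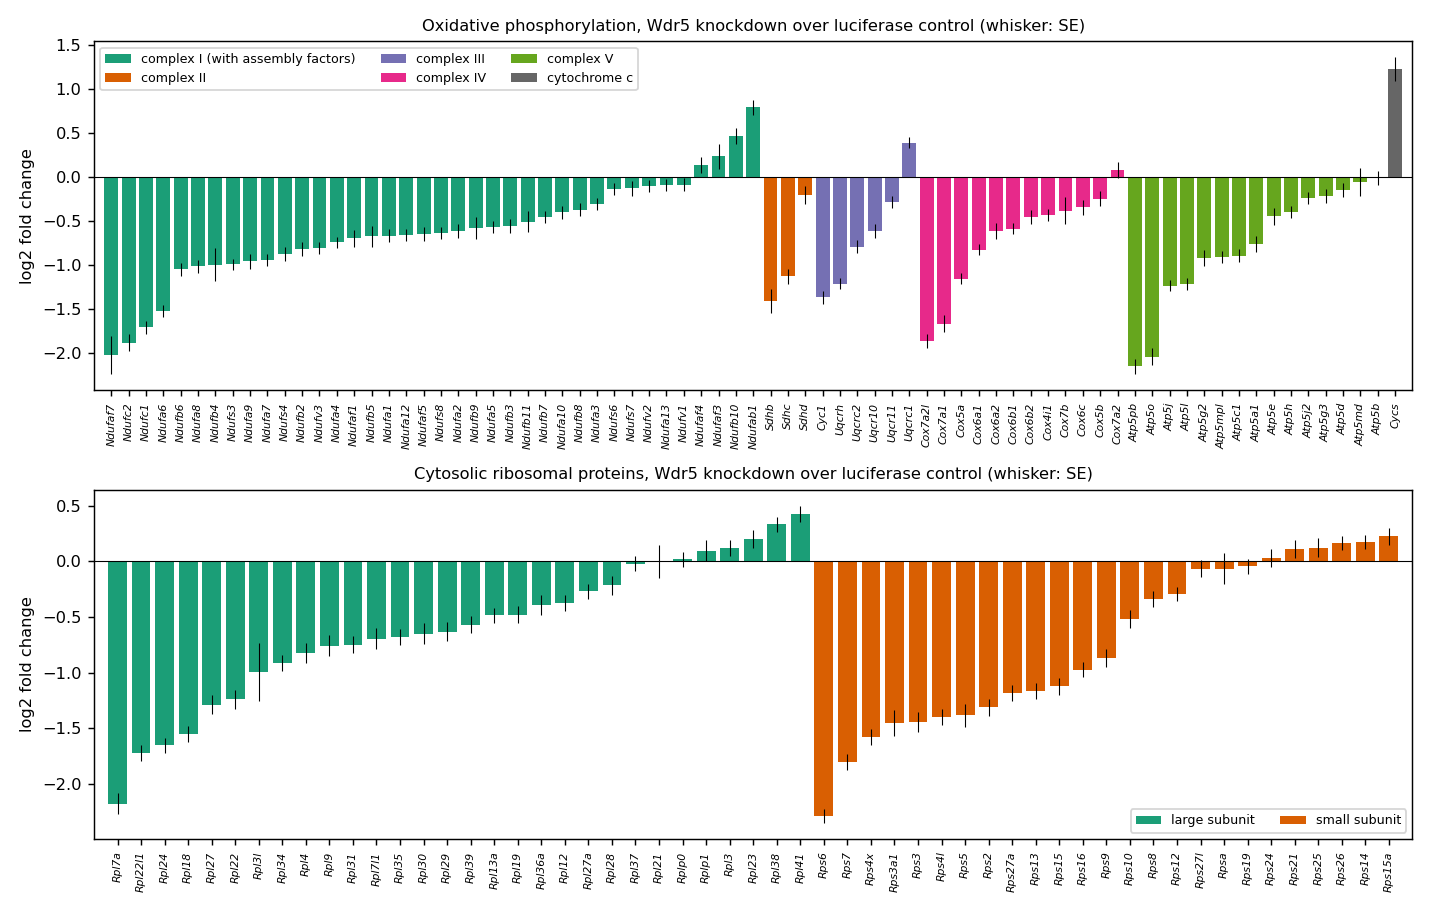
Log2 fold change (vertical axis, whisker SE), Wdr5 knockdown over luciferase control, of tested oxidative phosphorylation genes by complex (upper panel) and of tested cytosolic ribosomal protein genes by subunit (lower panel), each panel without 1 gene that is not reported here. In the upper panel most bars lie below 0, among them Atp5pb at -2.16; in the lower panel the bars run from -2.29 for Rps6 to 0.42 for Rpl41.

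Enzymes of glycolysis, the pentose phosphate pathway and the TCA cycle were lower in 26 of 45 measured genes and higher in 7 (median -0.40), with 11 at least 2-fold lower and none at least 2-fold higher. Idh1, the cytosolic isocitrate dehydrogenase gene, had 8.51, 8.42 and 8.40 in the knockdown and 10.64 and 10.78 in the control (4.81-fold). Idh2, its mitochondrial relative, fell 1.83-fold and the lactate dehydrogenase gene Ldha 1.56-fold. The glucose transporter genes Slc2a1 (log2 0.82 ± 0.07) and Slc2a3 (0.38 ± 0.07) rose, as did Pgd of the pentose phosphate pathway (0.66 ± 0.07), but with arrays scaled to a common median Slc2a3 was at 0.04 and not called (limma adjusted p = 0.72). Both enzymes that turn acetate into acetyl-CoA fell: Acss2, of the cytosol and nucleus, had 6.19, 6.25 and 6.10 in the knockdown and 8.99 and 8.97 in the control, and the mitochondrial Acss1 had 7.82, 7.72 and 7.70 against 10.57 and 10.48 in the control. Arrdc4, an arrestin-related gene regulated by glucose in other cells, had 9.09, 9.02 and 8.97 in the knockdown and 11.71 and 11.79 in the control. Fabp3, a fatty acid binding protein gene, fell 6.64-fold and the mitochondrial adenylate kinase gene Ak4 6.23-fold.

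Biosynthetic lists were lower too. Of 28 genes of serine, one-carbon and amino acid synthesis 16 were lower, 3 higher and 10 at least 2-fold lower (median -0.52). Umps, the last enzyme of pyrimidine synthesis, had 7.83, 7.88 and 7.92 in the knockdown and 10.21 and 10.31 in the control, but its other probes were at -0.06 and 0.30. Adss, which commits purine synthesis to AMP, fell 6.35-fold, and Shmt1, the cytosolic serine hydroxymethyltransferase gene, fell 2.37-fold. In cholesterol and fatty acid synthesis 18 of 31 were lower and 3 higher (median -0.52). Nsdhl, a sterol dehydrogenase gene on the X chromosome, fell 5.08-fold and its other 3 probes were between -2.41 and -0.89. Scd1, the stearoyl-CoA desaturase gene, had 8.85, 8.93 and 8.72 in the knockdown and 10.50 and 10.60 in the control, and Cyp51 fell 2.58-fold. Aminoacyl-tRNA synthetases were lower in 20 of 34 and higher in 7 (median -0.44). Eprs fell 2.80-fold, while Wars2, of mitochondria, rose 3.33-fold and Farsa 2.83-fold. Amino acid transporters were not part of this lower block: 8 of 17 were higher and 5 lower (median 0.11). These counts lay near the shares of all genes, 38.2% and 30.5%.

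Glutathione and antioxidant genes were lower in 23 of 40 and higher in 5, with 13 at least 2-fold lower (median -0.49), and 3 were higher without luciferase replicate 2. Glutathione transferases, which couple glutathione to reactive compounds, were lower in 12 of 14. Gstm5 had 6.68, 6.65 and 6.60 in the knockdown and 9.15 and 8.96 in the control. Gstp1 had 8.19, 8.29 and 8.30 in the knockdown and 10.19 and 10.22 in the control; it is near-identical to Gstp2, so the probes of the pair cannot be assumed to be specific. All 5 measured glutathione peroxidases fell, among them Gpx1 (2.54-fold) and Gpx4, which protects membrane lipids (2.56-fold, other probe at -0.63). The peroxiredoxin gene Prdx4 fell 2.63-fold and Prdx3, of mitochondria, 2.05-fold. Nfe2l2, encoding the antioxidant regulator Nrf2, fell 3.68-fold, and only 1 of its 3 knockdown signals exceeded background. Lysosome and autophagy genes were lower in 21 of 42 and higher in 13 (median -0.23), with the protease gene Lgmn (2.45-fold) and the sialidase gene Neu1 (2.31-fold) lower and the saposin precursor gene Psap higher (1.90-fold).

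Cytosolic ribosomal proteins were lower in 37 of 56 measured genes and higher in 3, with 17 at least 2-fold lower (median -0.60). Scaled to a common median, 1 was higher. Both subunits took part, with 21 of 30 large and 16 of 26 small subunit genes lower. Rps6, the small subunit protein phosphorylated by S6 kinase, had 11.72, 11.72 and 11.74 in the knockdown and 14.04 and 13.99 in the control (4.88-fold, log2 -2.29 ± 0.06 SE, limma adjusted p = 1.42e-05). Rpl7a had 9.16, 9.28 and 9.07 in the knockdown and 11.42 and 11.27 in the control. Rpl24 had 11.55, 11.61 and 11.65 in the knockdown and 13.28 and 13.24 in the control. These differences did not extend to every member: Rpl41 (0.42 ± 0.07) rose, Rpl3 (0.12 ± 0.07) was not called, and the genes ran from -2.29 to 0.42 in one complex whose subunits are needed in equal numbers. Ribosomal protein genes have many processed copies in the genome, so a probe can also read those. Mitochondrial ribosomal proteins were lower in 38 of 71 and higher in 10 (median -0.24).

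Translation factors were split, with 16 of 56 higher and 20 lower (median -0.09). Eif4b had 6.26, 6.09 and 6.26 in the knockdown and 8.69 and 8.70 in the control, Eif3c fell 4.74-fold, and the cap-binding repressor gene Eif4ebp2 rose 2.88-fold. For Eif4g2 the brightest probe was at -2.03 ± 0.07 and the other at 1.07, and without either luciferase array the second became the brighter, at 1.04 and 1.12. Proteasome genes were higher in 11 of 41 and lower in 17, chaperones were higher in 27 of 72 and lower in 29, and spliceosome and hnRNP genes were higher in 23 of 62 and lower in 22. The chaperone count of lower genes was 16 without luciferase replicate 1 and 18 without luciferase replicate 2. Hspa8, the constitutive Hsp70 gene, had 10.83, 10.71 and 10.92 in the knockdown and 13.00 and 13.26 in the control. Hnrnpk fell 4.63-fold by its brightest probe and was at 0.24 by the other, and Hnrnpa2b1 was at -1.78 ± 0.09 and 0.42. In the translation, chaperone and spliceosome lists both directions were thus present, with single members that fell by more than 4-fold.

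Cell division genes were lower by smaller amounts. Of 40 DNA replication genes 24 were lower and 3 higher (median -0.32), and the higher count was 0 without luciferase replicate 2 and 1 without luciferase replicate 1 or knockdown replicate 1. All 7 measured Mcm genes, most of which encode the replicative helicase, were lower. Mcm3 had 7.85, 7.96 and 7.77 in the knockdown and 9.33 and 9.37 in the control, and Pold2, a subunit of DNA polymerase delta, had 9.33, 9.29 and 9.46 in the knockdown and 10.85 and 10.91 in the control. Of 30 mitosis genes 15 were lower and 4 higher (median -0.30). Top2a, encoding the topoisomerase that untangles chromosomes, fell 3.36-fold and the cyclin gene Ccnb1 2.10-fold. Cdk1 fell 2.76-fold by its brightest probe, with the other at 0.87, and the mean of both was at -0.30. DNA repair genes were lower in 26 of 44 and higher in 11 (median -0.31), with the base excision nuclease gene Apex1 lower by 2.43-fold and the incision nuclease gene Ercc4 higher by 1.93-fold.

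Chromatin genes did not share one direction. Of 25 Polycomb genes 11 were lower and 7 higher (median -0.22). Among 10 PRC2 genes 6 were lower and none higher. Among 15 PRC1 genes 7 were higher and 5 lower, near the shares of all genes (38.2% higher and 30.5% lower). A difference between the 2 complexes was not tested. Mtf2, an accessory subunit of PRC2, had 9.46, 9.29 and 9.30 in the knockdown and 10.72 and 10.70 in the control. The methyltransferase gene Ezh2 fell 2.53-fold by its brightest probe, with the other at -0.03. Rbbp7, a histone-binding subunit shared with other complexes, fell 4.75-fold, and of its other probes those at -2.33 and -2.19 agreed in sign and 1 at 0.70 did not. Phc2 of PRC1 rose 2.12-fold. Chromatin remodellers were higher in 14 of 31 and lower in 10 (median 0.18), and the BAF subunits among them were higher in 8 of 14 and lower in 2. The ATPase genes Smarca2 (3.15-fold) and Smarca4 (2.14-fold) and the core subunit gene Smarcc2 (3.36-fold) rose, while Smarcc1, the form typical of ES cells, was at -0.51 ± 0.08 and its other probe at 0.13.

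Histone variants and chaperones were lower in 13 of 26 and higher in 8 (median -0.26), and 5 and 4 were higher without luciferase replicate 1 and replicate 2. H2az1, encoding the histone variant H2A.Z, had 11.22, 11.17 and 11.12 in the knockdown and 12.96 and 13.04 in the control (3.55-fold). The linker histone gene H1f0 fell 2.64-fold and the histone chaperone gene Asf1b 2.49-fold. In the DNA methylation list 5 of 15 genes were higher and 4 lower. Tdg, a glycosylase of active demethylation, fell 2.84-fold, the de novo methyltransferase gene Dnmt3b rose (0.46 ± 0.07), and Dnmt1 (0.07 ± 0.08) was not called. Imprinted genes were higher in 12 of 27 and lower in 10, with H19 at 6.14, 6.01 and 6.22 in the knockdown and 7.82 and 7.86 in the control, and Gnas 2.20-fold lower with both probes. Of 45 genes of the Rhox and Xlr list on the array, most of them X-linked and active in testis or placenta, 14 were bright enough to test and 4 were above background on all 5 arrays. Of the 14 tested, 10 were lower and none higher, but a gene that passed the filter through the control arrays alone had to lie lower, so this count is a description of those genes only. Without either luciferase array 5 of them were lower, and 1 was higher without knockdown replicate 1. Rhox5 had 10.71, 10.81 and 10.77 in the knockdown and 12.91 and 12.88 in the control, and Rhox10 was at least 3.39-fold lower. The Rhox and Xlr genes have near-identical copies that these probes may not separate. Antigen presentation and Ifitm genes were higher in 5 of 17 and lower in 6, with Ifitm2 lower by 2.19-fold.

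Some of the largest differences fell outside the lists. H2-M2, a nonclassical MHC class I gene, had signals of 8.51, 8.58 and 8.57 in the knockdown and 5.31 and 5.14 in the control. Nlrc3, a NOD-like receptor gene, rose 8.40-fold, the lipid kinase gene Dgkk 7.37-fold, the protocadherin gene Pcdh7 6.98-fold, the docking protein gene Dok2 6.37-fold and the GTPase gene Gbp3 6.37-fold. Ooep, a gene of the oocyte's subcortical maternal complex that ES cells express, had 10.71, 10.66 and 10.62 in the knockdown and 13.32 and 13.24 in the control. Mtch2, a mitochondrial outer membrane protein gene, fell 6.40-fold by its brightest probe, against 0.57 and 0.67 on the log2 scale by the others. The inositol phosphatase gene Impa2 fell 6.15-fold and the scaffold gene Pdzk1 6.37-fold. Among genes above background in one group, Prelp, a matrix proteoglycan gene, was at least 7.22-fold higher and Cacna2d1, a calcium channel subunit gene, at least 6.27-fold higher. The membrane protein gene Plxdc1 was at least 5.60-fold lower, Ly75, an endocytic receptor gene, at least 4.91-fold lower and Cidea, a lipid droplet protein gene, at least 4.76-fold lower. Without either luciferase array Plxdc1 was represented by another probe, at -0.98 and -1.21.

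Probes of one gene did not always agree. Several kept probes stood for 2505 genes, and 357 of these had probes called in opposite directions. All sizes above are those of the brightest probe, and other probes are given for some of the genes. Of the 6947 called genes, 6946 had the same sign in the authors' deposited table, and all 2115 called at 2-fold did. That table was made from the same arrays, so the shared sign is not a separate check of the calls. Its sizes were smaller for dim genes. Genes called at 2-fold were grouped by the mean log2 signal of their brighter group. The median ratio of the log2 fold change in the authors' deposited table to the one here was 0.24 for the 895 genes under 8, 0.50 for the 688 between 8 and 10, 0.81 for the 417 between 10 and 12, and 1.05 for the 115 above 12.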

How the data were processed

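RNA of 5 samples was measured on 1-colour Illumina beadchips. The deposited intensity columns hold the signal of each probe before normalization, per the file headers, and the deposited detection columns hold a fraction between 0 and 1 that rises with signal. The authors' deposited table of comparisons gives log2 fold changes and p-values made with limma, per the submitters' processing notes. Its symbols, updated where a unique synonym was found, named only the probes not named through a RefSeq accession. The authors' deposited log2 values of the arrays were used for counts over probes only, because their probe identifiers were not matched to names here. The genome build of the authors' processing is not given in the sources used here.

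Intensities were background-corrected with normexp on the detection values (offset 16), quantile-normalized and log2-transformed with neqc of limma 3.58.1 in R 4.3.3. A probe was kept if its detection value was above 0.95 on at least 2 of the 5 arrays, which left 13529 of 25697 probes. Of the probes, 24202 were named through a RefSeq accession, 301 through a unique synonym, and 1194 kept the symbol of the table. The brightest kept probe stood for a gene. Groups were compared with lmFit and eBayes, and p-values were adjusted over 10119 genes by the Benjamini-Hochberg procedure, with calls made under 0.05. A change counted as 2-fold from a log2 difference of 1. For a gene below background on every array of a group, the fold was computed against the lowest signal among probes above background, or the gene's own where higher, and written as "at least". Only the lmFit and eBayes step was tested on simulated normalized signals. Background correction, normalization, probe choice and the bounds were not.

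Genes were named by rule: Wdr5 and the markers, in each direction the 30 called genes of largest fold change above background on all 5 arrays and the 10 of largest bound above background in 1 group only, and list members, larger changes first. Among these, the genes printed were chosen for their roles after their values were seen. The members and lists were chosen with earlier results of these data known. Deviations of arrays with the same replicate number correlated at -0.03 and -0.014. The deviations of the 2 control arrays mirror each other, so these values are not separate checks and do not exclude pairing. Alternatives were scaling to a common median, the authors' values, filters, offset, probe averaging, a variance trend, a replicate block, and leaving out each array. Some genes named by the rule are not reported here.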

Additional observations from a re-analysis of the deposited data

How the results depend on the processing

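The 4 counts over all genes stayed within 1.5 times under scaling to a common median, both filters, probe averaging, the variance trend and every array left out, but median scaling turned the balance at 2-fold (972 higher, 1144 lower). With a replicate block 3593 genes were higher and 2839 lower, and 1142 and 971 at 2-fold. The replicate numbers were treated as shared numbers only. Deviations of same-numbered arrays did not correlate, which does not exclude pairing. Leaving out 1 array gave 3352 to 3692 higher and 2380 to 3001 lower genes. With an offset of 50 in place of 16, 751 genes were at least 2-fold higher, since a larger offset shrinks the log ratios of dim genes. On the authors' deposited log2 values, tested by probe over 25697 probes, 4639 probes were lower, and 315 were at least 2-fold higher and 395 at least 2-fold lower; the cause was not tested. Gene lists and single genes were not refitted on those values because the probe identifiers were not matched.

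Of 200 genes named and tested, 191 kept direction and call in every alternative that measured them. With 1 array left out, Eif4g2 ran from -2.04 to 1.12, and it reversed without either luciferase array, where another probe was the brightest. The other exceptions were Cdh1, Egr1, Itgb6, Pdgfra and Slc2a3, which lost a call, and Actn4, Pxn and Rpl3, which gained one. Egr1 was at -0.30 with the replicate block (limma adjusted p = 0.0664). Counts of list members moved by over 1.5 times most often with an offset of 50 (21 counts, 2-fold counts included). The Notch list held 3 lower genes with the replicate block, and 3 higher ones with median scaling. With detection on all 5 arrays, 3 Rhox and Xlr genes and 6 epithelial junction genes were lower. Genes near background had the fewest arrays above it, and 8269 genes were above background on all 5 arrays.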

Other observations

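Over all genes tested, members of the lists included, 400 were above background in the knockdown group alone and 323 in the control group alone. Keratinocyte markers on the array had a summed deposited intensity of 2162 to 2457 in the knockdown and 1062 and 1252 in the control, with Krt5, Perp and Trp63 below background on every array. Without Itga6, the brightest member, these were 1207 to 1583 in the knockdown and 699 and 786 in the control. Primitive endoderm markers summed to 1928 to 2326 in the knockdown and 751 and 923 in the control, with Afp, Apoa1, Foxa2 and Sox17 below background on every array. Dab2 carried that sum, which without it was 310 to 353 in the knockdown and 263 and 332 in the control, and of 5 members tested 2 were higher and 1 lower. Trophoblast markers summed to 4857 to 5610 in the knockdown and 8393 and 10049 in the control. Without Tfap2c, the brightest member, the trophoblast sums were 1951 to 2246 in the knockdown and 2226 and 2958 in the control. Of 6 trophoblast markers tested 2 were higher, Gata3 and Eomes, and 3 lower. Of 12 macrophage markers 10 were below background on every array. These sums were not tested.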
